A study of Mus musculus with 8 samples.

Results

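Enhancer regions that carried both H3K27ac and H3K4me1 but no peak of FLAG-tagged NANOG and none of BRG1 were examined in mouse embryonic fibroblasts at day 5 of reprogramming. H3K27ac and H3K4me1 peaks of both arms were merged where they overlapped or touched, which gave 94034 regions. In 37999 of them H3K27ac and H3K4me1 peaks overlapped within an arm, and these are called enhancer regions here. A region was retained when no FLAG or BRG1 peak of either arm overlapped it by 1 bp or more. This left 2912 enhancer regions without NANOG or BRG1, which is 7.66% of enhancer regions (95% interval 7.40 to 7.94). The interval covers counting alone, since the share was 13.3% with each list cut to its 20000 highest-scoring peaks and 15.7% with peaks of 15 tags or more, and the number of regions fell to 1670 at a score of at least 100. Of the other 35087, 30221 had peaks of both FLAG and BRG1, 3664 had FLAG and no BRG1, and 1202 had BRG1 and no FLAG.

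H3K4me1 marks enhancers whether or not they are active, and H3K27ac is added by acetyltransferases at enhancers and promoters in use. NANOG is a homeodomain transcription factor of pluripotent cells. BRG1 is the ATPase of the BAF complex, which slides and evicts nucleosomes and is brought to enhancers by transcription factors, in fibroblasts largely by those of the AP-1 family. A region with both histone marks and neither protein is therefore one where the chromatin signature of activity was recorded without a called site of either.

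The fibroblasts were OG2 MEFs, which carry a GFP reporter driven by Oct4 sequences, and in both arms they had received Oct4 from a retroviral vector. In NanogWT the second factor was wild-type Nanog (labelled Nanog+Oct4). In NanogBiD it was Nanog with the BRG1-interacting domain of SS18, 70 residues long, joined to its N-terminus (labelled NanogN70+Oct4, and equated with NanogBiD from the study's text). CUT&Tag tags the DNA around an antibody-bound protein by means of a tethered transposase. It was done in 2 arms for 4 targets, and each of the 8 groups is 1 library, merged from replicates before deposition. There was no library of untreated fibroblasts, so the share of these regions already marked before reprogramming was not analysed here. With 1 library per group no test between arms was possible, and intervals cover counting error over regions, not variation between cultures. The 8 lists held 30859 to 74782 peaks, and the sequencing depth behind them is unknown. Expression data were not used here, so the labelled cell type was set against marks. Of all protein-coding genes, 61.1% were the nearest gene of at least 1 enhancer region with FLAG or BRG1, and so were 28 of 31 fibroblast matrix genes (90.3%). The same held for 5 of 6 endothelial, 5 of 6 neural, 3 of 6 blood and 2 of 4 muscle marker genes, so nearby marks did not set the fibroblast label apart from endothelial and neural ones.

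The strongest of the 2912 regions were picked by the lowest of their summit heights, the summit height being the tag pileup at the highest point of a peak. Windows of 200 bp at their H3K27ac summits are shown from GRCm38, the assembly of mm10, to let the motifs counted further on be seen in place. Capitals mark matches on either strand to those motifs.
Intergenic region near Pard6b, 2 TEAD matches, chr2:168115047-168115246, plus strand: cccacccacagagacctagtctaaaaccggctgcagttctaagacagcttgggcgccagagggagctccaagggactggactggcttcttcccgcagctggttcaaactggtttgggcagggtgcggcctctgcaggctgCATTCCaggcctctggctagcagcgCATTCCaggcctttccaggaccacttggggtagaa
Intron of Ptpn3, E-box, RUNX and AP-1 matches in that order, chr4:57295149-57295348, plus strand: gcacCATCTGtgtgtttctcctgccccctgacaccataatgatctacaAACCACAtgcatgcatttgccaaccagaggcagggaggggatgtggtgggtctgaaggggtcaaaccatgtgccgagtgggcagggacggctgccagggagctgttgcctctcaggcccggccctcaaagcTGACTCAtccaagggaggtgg
Intron of Dhx34, E-box and AP-1 matches in that order, chr7:16207496-16207695, plus strand: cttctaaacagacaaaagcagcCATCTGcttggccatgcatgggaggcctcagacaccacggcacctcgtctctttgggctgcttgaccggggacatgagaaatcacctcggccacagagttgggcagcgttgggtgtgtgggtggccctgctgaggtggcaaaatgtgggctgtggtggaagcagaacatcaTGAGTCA
Near Lrrc32, NANOG core match, chr7:98504103-98504302, plus strand: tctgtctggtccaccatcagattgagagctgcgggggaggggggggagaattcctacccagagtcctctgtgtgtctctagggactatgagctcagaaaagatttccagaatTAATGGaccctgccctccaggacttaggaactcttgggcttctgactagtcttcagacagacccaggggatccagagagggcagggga
Upstream of Id1, GC box and CRE matches in that order, chr2:152735096-152735295, plus strand: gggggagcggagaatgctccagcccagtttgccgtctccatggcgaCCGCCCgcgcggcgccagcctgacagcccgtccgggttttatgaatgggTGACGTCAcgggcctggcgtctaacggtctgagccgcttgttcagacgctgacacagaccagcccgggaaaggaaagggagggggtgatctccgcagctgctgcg
Intergenic region near Prkce, no match, chr17:86161833-86162032, plus strand: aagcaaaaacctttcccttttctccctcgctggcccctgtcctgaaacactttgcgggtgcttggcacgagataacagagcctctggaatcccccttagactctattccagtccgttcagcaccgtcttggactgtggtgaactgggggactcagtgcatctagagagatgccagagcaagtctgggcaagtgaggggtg
Of these windows, the one near Lrrc32 was the only one with a NANOG core, and the AP-1 matches of the Ptpn3 and Dhx34 introns lay towards one edge of the window.

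The intergenic region near Pard6b, a cell polarity gene, spanned chr2:168114575-168115724 and had H3K27ac heights of 32 tags in NanogWT and 26 in NanogBiD. Its H3K4me1 heights were 19 and 25 tags. The nearest BRG1 peak was 1.12 kb away and the nearest FLAG peak 6.58 kb away. The Ptpn3 intron (chr4:57294589-57295998), within a gene for a protein tyrosine phosphatase, had H3K27ac heights of 18 and 25 tags and H3K4me1 heights of 27 and 22. Near Prkce, which encodes a protein kinase C, the region chr17:86161291-86162385 had an H3K27ac height of 19 tags in both arms and H3K4me1 heights of 31 and 22. The other regions picked from those with both marks in both arms lay at the long noncoding RNA gene Gm14319, in Rap1gap2 and at the promoter of Phf2, a histone demethylase gene. In these 6 regions the heights ran from 18 to 32 tags, and neither arm was the higher throughout.

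Among regions with both marks in NanogWT alone, the one near Lrrc32 (chr7:98502011-98506347) had an H3K27ac height of 21 tags and an H3K4me1 height of 22 in NanogWT, and no peak of either mark in NanogBiD. The promoter of Agpat3, an acyltransferase gene of phospholipid synthesis, had an H3K27ac height of 30 tags in each arm, so that it was the H3K4me1 peak, 20 tags in NanogWT, that NanogBiD lacked. Introns of Dop1b and Camkk2 completed this set, and the one in Dop1b lay 739 bp from a BRG1 peak. Among regions with both marks in NanogBiD alone, the region containing the start site of Id1 (chr2:152734404-152736972) had H3K27ac heights of 21 tags in NanogWT and 22 in NanogBiD. Id1 encodes an inhibitor of basic helix-loop-helix factors. Its H3K4me1 height was 24 tags in NanogBiD, and NanogWT had no H3K4me1 peak there. The promoter of Rars showed the same arrangement, with H3K27ac at 25 and 27 tags and H3K4me1 at 22 tags in NanogBiD alone. The Dhx34 intron (chr7:16206713-16208231) differed in H3K27ac instead, with 24 tags in NanogBiD and no peak in NanogWT. It lay just inside the rule, 167 bp from a FLAG peak. An intron of Myo18a had H3K27ac at 27 tags and H3K4me1 at 21 tags in NanogBiD and neither peak in NanogWT.

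Regions without NANOG or BRG1 were weakly marked. Since peak calling decided membership, the following heights and lengths are descriptions. In NanogWT, 2004 of the 2912 regions had an H3K27ac peak, with a median summit height of 12 tags (quartiles 10 and 14) and a highest of 46. In NanogBiD 1712 had one, again with a median of 12 tags (10 and 14) and a highest of 34. The median over enhancer regions with FLAG and BRG1 was 19 tags in each arm. H3K4me1 was closer, with medians of 15 tags in NanogWT and 13 in NanogBiD against 18 and 16. Regions with FLAG and no BRG1 matched them, at 12 tags of H3K27ac in each arm and 16 and 13 tags of H3K4me1. The median length was 1209 bp, against 1632 bp for enhancer regions with FLAG or BRG1.

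**Figure D1:**
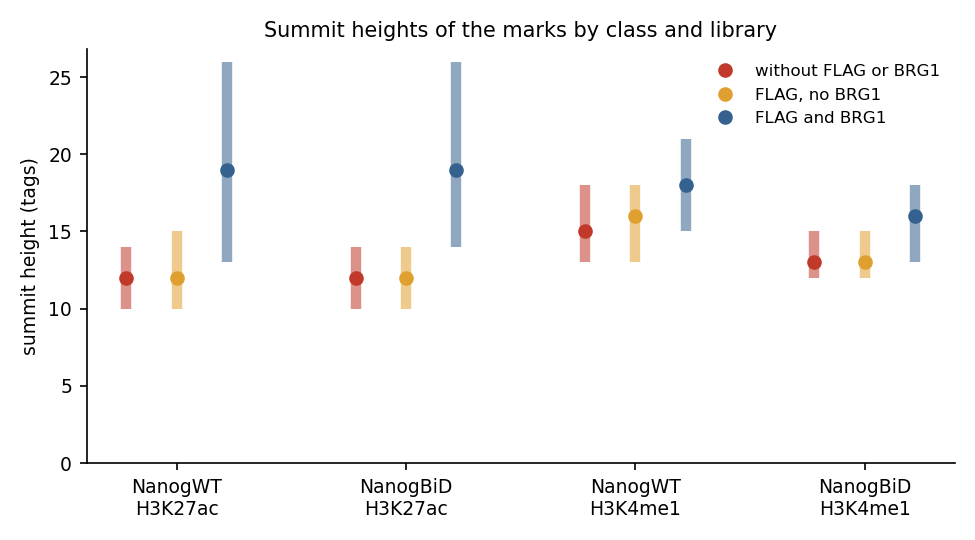
Summit heights in tags (vertical axis) in the 4 libraries of histone marks (horizontal axis); points are medians over the regions with a peak in that library and bars run from the lower to the upper quartile. H3K27ac medians were 12 tags without FLAG or BRG1 and 19 with both, while regions with FLAG and no BRG1 lay at 12.

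The share of enhancer regions that lacked both proteins fell with the strength of the mark. It was 18.2% (17.5 to 19) at H3K27ac heights of 7 to 12 tags, 10.4% at 13 to 15, 5.03% at 16 to 19, 1.77% at 20 to 27, and 0.222% (0.137 to 0.360) from 28 tags up. Of the 7218 enhancer regions in that last class, 16 lacked both. The fall with H3K4me1 height was shallower, from 12.5% at 8 to 14 tags to 2.41% from 22 tags up. By length it went from 14.3% in the class of shortest regions to 2.37% in that of the longest. A longer region has more room for a FLAG or BRG1 peak, and height and length move together, so their parts cannot be told apart in these shares.

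**Figure D2:**
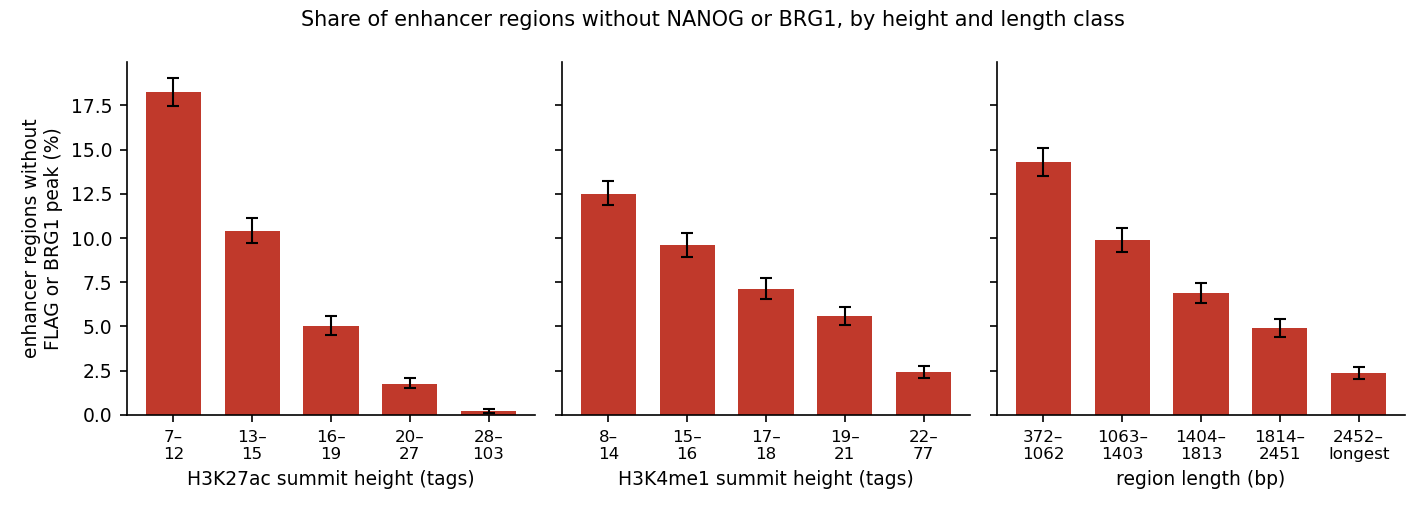
Percent of enhancer regions with no FLAG or BRG1 peak (vertical axis) in 5 classes (whole-tag heights make those of height unequal in size) by H3K27ac summit height, H3K4me1 summit height and region length (horizontal axes); bars are shares and lines their 95% intervals. The share ran from 18.2% in the lowest to 0.222% in the highest class of H3K27ac height.

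The marks in these regions were mostly called in a single arm. Both marks overlapped in both arms in 513 regions, 17.6%, where 53.4% of all enhancer regions did so. They overlapped in NanogWT alone in 1403, 48.2%, against 20.4% of all enhancer regions, and in NanogBiD alone in 996, 34.2%, against 26.2%. The arms are read from the same peak lists that chose the regions, so these shares are a description with no interval or test. The share with both arms moved with height, and was 37.6% among the 663 regions with an H3K27ac height of 15 tags or more, where it was 72.6% with FLAG or BRG1. Regions were therefore also compared at H3K27ac heights of 10 to 14 tags, a limit chosen after the heights had been seen. Within it, both arms had both marks in 14.02% of regions without FLAG or BRG1 and 27.2% of those with them, so most regions of either class were marked in a single arm. There, 48.1% of regions without FLAG or BRG1 had both marks in NanogWT alone and 37.9% in NanogBiD alone. The values with FLAG or BRG1 were 27.3% in NanogWT alone and 45.6% in NanogBiD alone. The pattern was not particular to regions without either protein. Over all heights, the 3664 regions with FLAG and no BRG1 had both marks in both arms in 22.1%, in NanogWT alone in 44.2% and in NanogBiD alone in 33.7%. The FLAG and BRG1 lists of NanogBiD were the longer ones, with 74782 and 53748 peaks against 58940 and 30859. The part of list length in these shares was not tested. When every list, those of the marks included, was cut to its 20000 highest-scoring peaks, the order of the arms was nearly gone. The shares in NanogWT alone and in NanogBiD alone were then 38.6% and 37.4%. Among the 663 regions with an H3K27ac height of 15 tags or more the order was kept, at 40.9% and 21.6%.

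**Figure D3:**
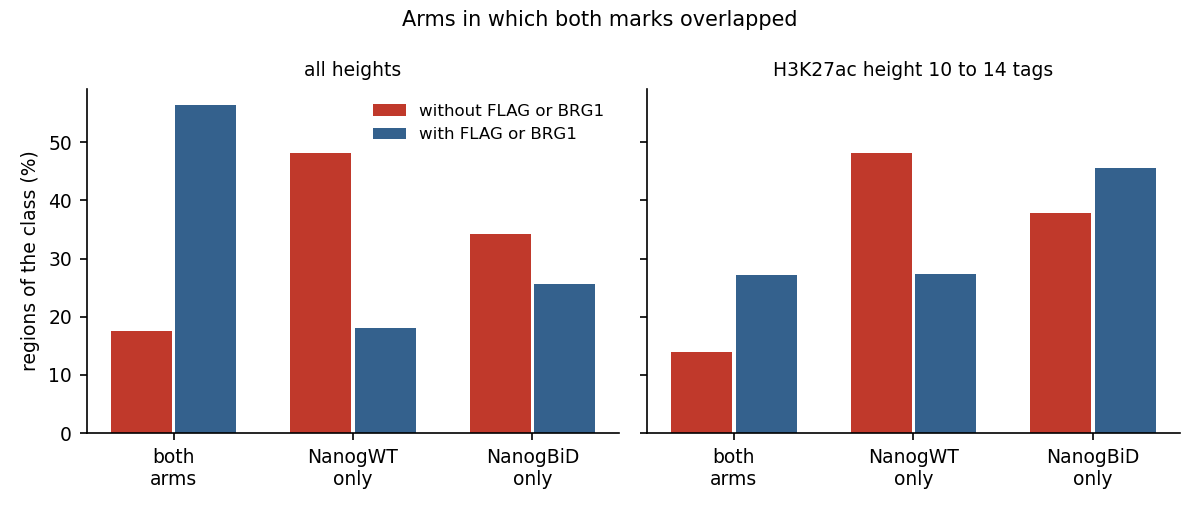
Percent of regions (vertical axis) with both marks overlapping in both arms, in NanogWT alone or in NanogBiD alone (horizontal axis), over all heights (left) and at H3K27ac heights of 10 to 14 tags (right); bars are shares, with no test. Without FLAG or BRG1, 48.1% had both marks in NanogWT alone in the right panel, against 27.3% with FLAG or BRG1.

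What the other arm had at regions marked in a single arm was then read. Of the 1403 regions marked in NanogWT alone, 737 (52.5%) had neither mark in NanogBiD, 463 (33.0%) had H3K4me1 without H3K27ac, and 197 (14.04%) had H3K27ac without H3K4me1. Of such regions with FLAG or BRG1, 25.6% had neither mark in NanogBiD, 28.1% had H3K4me1 alone and 45.2% had H3K27ac alone. Of the 996 marked in NanogBiD alone, 673 (67.6%) had H3K4me1 without H3K27ac in NanogWT and 235 (23.6%) had neither mark. Regions with FLAG or BRG1 marked in NanogBiD alone had H3K4me1 alone in 57.6% and neither mark in 23.6%. The H3K4me1 list of NanogWT was the longer of the pair, with 72242 peaks against 57156, and its H3K27ac list the shorter, with 35452 against 42598. Both lengths move with this difference, and their part in it was not tested.

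Heights could be compared between arms only where a mark had a peak in both. Heights lay near the lowest that were called, so a region with a large change could lack a peak in 1 arm and stay out of this comparison, which does not show how much the mark differed over all regions. H3K27ac was called in both arms at 804 of the regions, of which 400 were higher in NanogBiD, 301 higher in NanogWT and 103 equal. Expressed as log2 of NanogBiD over NanogWT, the median height ratio was 0 (quartiles -0.17 and 0.28), and over all mark regions it was 0.08. A single region was at least 2-fold higher in NanogBiD, against 1.46% of all mark regions, and 2 were at least 2-fold higher in NanogWT, against 0.39%. All mark regions include taller peaks, so nothing is read from these counts. H3K4me1 was called in both arms at 1658 of the regions and was higher in NanogWT at 1171 of them. Its median log2 ratio was -0.21 (quartiles -0.46 and 0), beside -0.18 over all mark regions. No region was 2-fold higher in NanogBiD, where 0.0169% of all mark regions were, and 19 (1.15%) were 2-fold higher in NanogWT, where 0.852% were. Heights were not scaled to depth, so only the distance from the median of all mark regions can be read.

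Regions without NANOG or BRG1 lay about as far from enhancer regions with FLAG or BRG1 as those lay from each other. The gaps to single peaks were measured for regions without NANOG or BRG1 alone, so they have no such reference. The nearest FLAG or BRG1 peak of either arm was a median of 6.06 kb away (quartiles 2.51 and 12.4 kb). It was within 1 kb at 371 regions (12.7%) and within 50 kb at 2871 (98.6%). The nearest FLAG peak was a median of 6.505 kb away, the nearest BRG1 peak 9.21 kb. The nearest enhancer region with FLAG or BRG1 was a median of 13.5 kb away. For enhancer regions with FLAG or BRG1, the nearest other such region was a median of 14.7 kb away. Just inside the rule stood 35 regions with a FLAG or BRG1 peak within 100 bp, the closest at 7 bp. Just outside it stood 28 enhancer regions overlapped by FLAG or BRG1 peaks over 100 bp or less, out of 35087 whose median overlap was 1230 bp.

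Genomic position was not used in choosing the regions. A promoter was taken as the 2 kb before and after a GENCODE start site, and one overlapped 848 of the 2912 regions, or 29.1% (27.5 to 30.8). It was 50.2% at a score of at least 100, 46.0% with 20000 peaks a list and 51.4% at 15 tags or more. With all peaks, the share was 36.7% (36.2 to 37.2) in enhancer regions with FLAG or BRG1, a difference of -7.61 percentage points (-9.30 to -5.85). This order turned when heights were made alike. At H3K27ac heights of 10 to 14 tags, 26.1% (24.2 to 28.2) of regions without FLAG or BRG1 were at promoters and 16.7% (16.0 to 17.4) of those with them, a difference of 9.44 points (7.35 to 11.6). Requiring 15 tags or more in all lists gave 1.52 points (-0.44 to 3.47). Against regions with FLAG and no BRG1, whose heights were alike, the difference was 11.3 points (9.24 to 13.4), since 17.8% of those were at promoters. Regions with BRG1 and no FLAG were at promoters more often, in 41.5%. Of the 848, 654 (77.1%) were at a protein-coding gene, and the other 194 were at genes of other types. By the position of the H3K27ac summit, 1508 of all 2912 regions (51.8%) were intronic, 946 (32.5%) intergenic, 234 (8.04%) in a UTR and 224 (7.69%) in another exon.

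The promoter share depended on the arm in which the marks were called. It was 50.1% (45.8 to 54.4) where both arms had both marks, beside 49.1% (48.4 to 49.8) of enhancer regions with FLAG or BRG1 marked in both arms. It was 34.1% (31.3 to 37.1) in NanogBiD alone and 17.9% (15.97 to 19.98) in NanogWT alone. The difference between the single arms was 16.3 points (12.7 to 19.8) in regions without FLAG or BRG1 and 1.83 points (0.53 to 3.12) in enhancer regions with them. The difference of these differences was 14.4 points (10.6 to 18.2), and at heights of 10 to 14 tags it was 13.8 points (9.32 to 18.3). These intervals compare regions of 1 library per group, not cultures.

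**Figure D4:**
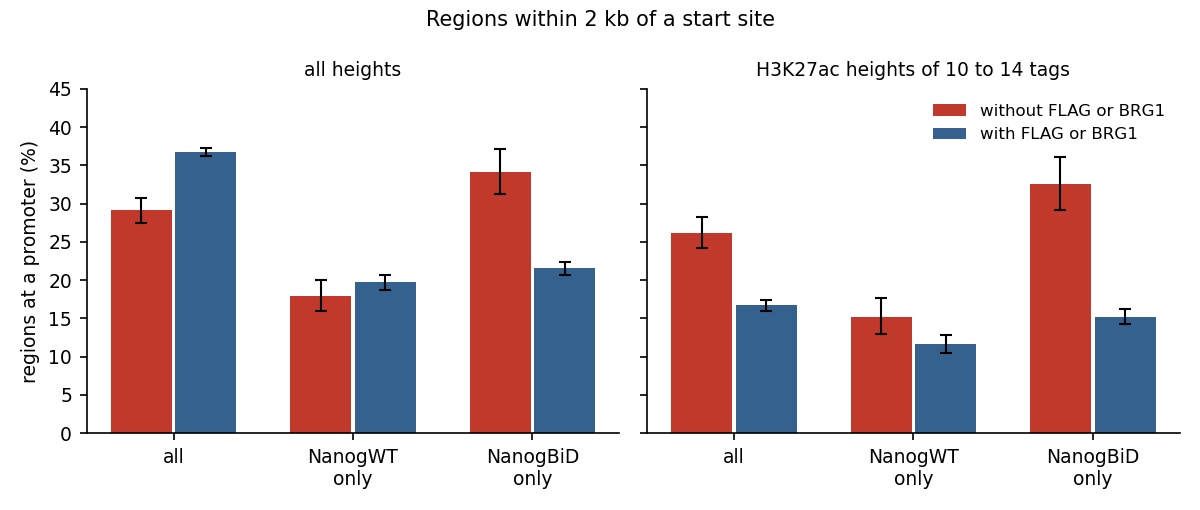
Percent of regions within 2 kb of a start site (vertical axis) for all regions and for those with both marks in NanogWT alone or NanogBiD alone (horizontal axis), over all heights (left) and at H3K27ac heights of 10 to 14 tags (right); lines are 95% intervals. The order of the classes over all regions turned from 29.1% against 36.7% (left) to 26.1% against 16.7% (right).

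Sequence was read in 300 bp centred on the H3K27ac summit, for 2063 distal and 848 promoter regions without NANOG or BRG1. Distal windows were richer in G and C than those of enhancer regions with FLAG or BRG1, with a median G+C of 51.7% (quartiles 48.0 and 55.3) against 48.3% (44.3 and 52.3). The ratio of observed to expected CpG was alike, at medians of 0.221 and 0.223. At promoters the order was reversed, with a median G+C of 60.3% against 63.3% and a CpG ratio of 0.536 against 0.721.

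Matches to 19 motifs were counted on both strands. Those of the factors introduced or of pluripotency were the NANOG core TAATGG, the OCT octamer ATGCAAAT, SOX ACAATG and KLF GGGTGTGG. Those known from fibroblast enhancers were AP-1 TGACTCA, TEAD GGAATG, RUNX TGTGGTT, the E-box CAGATG bound by TWIST, CEBP TTGCGCAA, FOX TGTTTAC, STAT TTCCNGGAA and the glucocorticoid receptor ACANNNTGT. Those common at promoters were the GC box GGGCGG, ETS CCGGAAGT, the CCAAT box AGCCAAT, CRE TGACGTCA, NRF1 GCGCATGC and YY1 AAGATGGC. The last was CTCF CCANNAGGG, a shortened form of the motif of the insulator protein. These are short patterns, and a match is not a bound site.

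In distal regions, 6 of the 19 motifs were less frequent without NANOG or BRG1 than with FLAG or BRG1, and 1 was more frequent. This was read at intervals adjusted over the 19, which are those given for differences. The rule had removed regions with a FLAG or BRG1 peak. Shares of motifs linked to binding of NANOG or BRG1, such as the NANOG core and AP-1, are therefore not independent of it. Their differences are descriptions. The NANOG core was found in 6.35% of windows (5.38 to 7.49) against 12.2%, a difference of -5.84 points (-7.43 to -3.92). It was found in 11.4% of all distal mark regions, and in 11.35% of windows 2 kb away from the regions without NANOG or BRG1. Those windows were poorer in G and C, with a median of 45.8%. The OCT octamer was found in 1.89% against 4.17% (-2.28 points, -3.11 to -1.08), and the SOX motif in 11.9% against 17.1% (-5.17 points, -7.295 to -2.74). AP-1 was found in 13.9% (12.5 to 15.5) against 21.0%, a difference of -7.04 points (-9.33 to -4.46). Unlike the NANOG core, AP-1 was more frequent at the summit than 2 kb away, where it was found in 4.75% (3.92 to 5.76). In enhancer regions with FLAG or BRG1, windows 2 kb away held the NANOG core in 11.5% and AP-1 in 5.31%. The NANOG core was thus little more frequent at their summits. With FLAG and no BRG1 it was less frequent there, at 9.83% against 11.9%. The differences were -1.92 points for RUNX and -3.75 points for the E-box, and CTCF was higher, at 8.63% against 6.49% (2.14 points, 0.38 to 4.24). The adjusted interval included 0 in 8 of 12 other settings for RUNX, 7 for the E-box, 3 each for the OCT octamer and CTCF, and 1 for SOX. TEAD was found in 19.6% and 19.7%, with an interval of the difference that ran at the adjusted level from -2.69 to 2.81 points.

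The shares were then set out by which protein was present. The NANOG core was found in 6.35% of distal regions with neither protein, 5.28% with BRG1 and no FLAG, 9.83% with FLAG and no BRG1, and 12.8% with both. SOX followed the same order, at 11.9%, 11.1%, 15.9% and 17.5%. AP-1 followed another, at 13.9% with neither, 12.5% with FLAG and no BRG1, 21.5% with BRG1 and no FLAG, and 22.3% with both. Regions with neither protein differed from those with FLAG and no BRG1 in the NANOG core by -3.48 points (-5.745 to -1.12), and in AP-1 by 1.46 points (-1.42 to 4.44). They differed from those with BRG1 and no FLAG in AP-1 by -7.63 points (-13.1 to -2.69), and in the NANOG core by 1.07 points (-2.40 to 3.78). CTCF was found in 10.3% with BRG1 and no FLAG and 6.81% with FLAG and no BRG1. For CTCF, the OCT octamer, RUNX and the E-box, the adjusted interval of the difference from regions with neither protein included 0 against both of these classes. G+C moved with the order of the NANOG core and SOX, with distal medians of 53.0% with BRG1 and no FLAG, 51.7% with neither protein, 49.3% with FLAG and no BRG1, and 48.0% with both. At 45 to 55% G+C in each class, added after this was seen, the NANOG core was found in 6.17%, 7.41%, 9.99% and 11.8% in that order, and AP-1 in 23.2%, 15.3%, 12.05% and 22.7%. There, neither protein against FLAG and no BRG1 gave -2.58 points for the NANOG core (adjusted interval -5.49 to 0.50) and 3.30 points for AP-1 (adjusted interval -0.33 to 7.10). Against BRG1 and no FLAG, the AP-1 difference was -7.87 points (adjusted interval -15.3 to -1.34). SOX was found in 12.6%, 13.2%, 15.1% and 15.7% in the same order, and its adjusted intervals of the differences from regions with neither protein included 0.

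**Figure D5:**
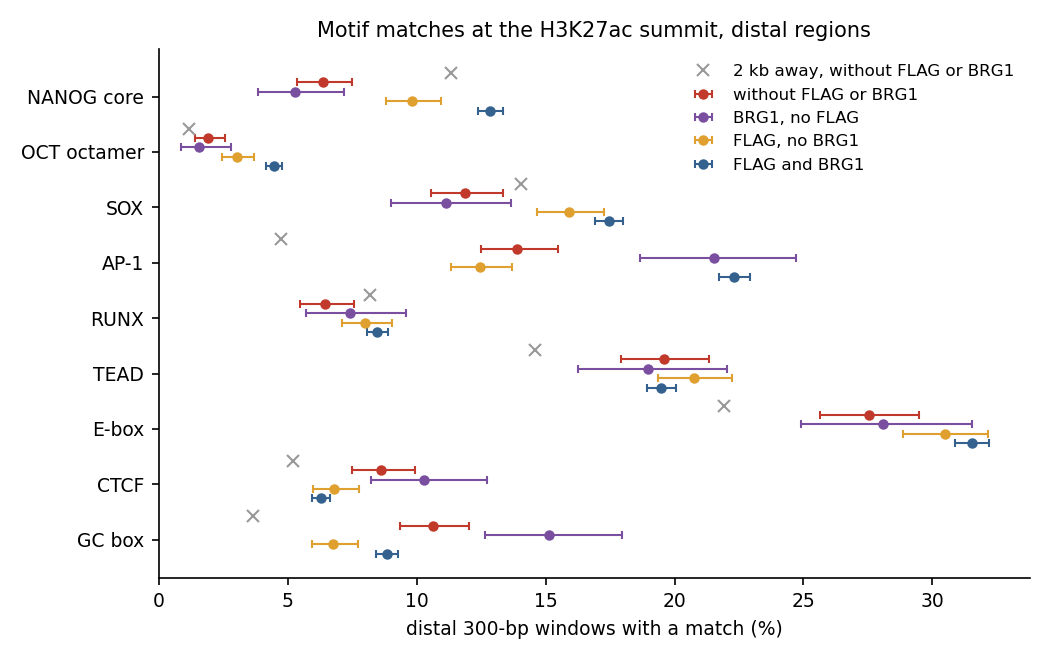
Percent of distal 300-bp windows at the H3K27ac summit with a match (horizontal axis) for 9 motifs (vertical axis); points are shares of 4 classes of enhancer region with 95% intervals, and crosses are windows 2 kb from the regions without FLAG or BRG1. The NANOG core was found in 6.35% with neither protein and 12.8% with both, and AP-1 in 13.9% and 22.3%.

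Base composition also differed between the classes, and its part in these differences was not tested beyond the limit that follows. With both classes limited to windows of 45 to 55% G+C, a limit added after the composition had been seen, the intervals of 2 motifs still excluded 0 at the level adjusted over 19. The NANOG core was then found in 7.41% against 11.4% (-3.96 points) and AP-1 in 15.3% against 21.1% (-5.72 points). The OCT octamer was at 2.04% against 3.51%, SOX at 13.2% against 15.5% and CTCF at 6.95% against 6.55%, and their adjusted intervals included 0. At equal H3K27ac heights of 10 to 14 tags, the differences were -6.71 points for the NANOG core, -2.40 for OCT, -5.95 for SOX, -5.14 for AP-1 and 3.11 for CTCF, and all 5 adjusted intervals excluded 0.

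At promoters 4 of the motifs common there were less frequent in regions without NANOG or BRG1 than in the pooled regions with FLAG or BRG1. The GC box was found in 41.98% of 848 windows against 56.6%, the CCAAT box in 3.42% against 7.49%, NRF1 in 1.42% against 3.77% and YY1 in 1.30% against 3.64%. The E-box was more frequent, at 18.5% against 13.6%. These 5 of 19 differences had adjusted intervals that excluded 0. The order depended on the class, and median G+C of promoter windows ran the same way as the GC box, at 56.3% with FLAG and no BRG1, 60.3% with neither protein and 64.0% with BRG1 and no FLAG. The part of composition in it was not tested. Against promoters with FLAG and no BRG1, where 32.2% had a GC box, the difference was 9.82 points (adjusted interval 2.24 to 17.2). Against those with BRG1 and no FLAG, where 54.1% had one, it was -12.1 points (adjusted interval -20.4 to -3.66). The CCAAT box, NRF1, YY1 and the E-box had adjusted intervals that included 0 against both of these classes. AP-1 was found in 6.01% against 6.67% of the pooled promoter windows.

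Within distal regions without NANOG or BRG1, the arms were compared next. The intervals cover counting over regions of 1 library per group, not cultures, and the arms are read from the lists that chose the regions. AP-1 was found in 16.1% (14.1 to 18.3) of regions marked in NanogWT alone and 10.4% (8.26 to 12.9) of those marked in NanogBiD alone, and the GC box in 6.52% and 14.2%. Median G+C was 50.7% and 52.3%. At 45 to 55% G+C the AP-1 shares were 16.5% and 13.7%, and the GC box shares 4.04% and 7.49%, with adjusted intervals of the difference that included 0. Of the 19 motifs, the CCAAT box had an adjusted interval that excluded 0 there, at 1.64% in NanogWT alone and 4.91% in NanogBiD alone (3.27 points, 0.15 to 7.81). Over all distal windows its difference was 1.88 points, with an adjusted interval that included 0. The G+C limit was added after the data were seen, so nothing is read from the CCAAT box. The AP-1 difference of -5.71 points was not stable, since its adjusted interval included 0 in 8 of 12 other settings, and it was -1.46 points with the 20000 highest-scoring peaks of a list and -2.03 points with windows of 75 bp either side. The GC box difference of 7.66 points had an adjusted interval that included 0 at equal G+C alone among those settings. The NANOG core was found in 5.91% of regions in NanogWT alone and 7.62% of those in NanogBiD alone, a difference of 1.71 points (95% interval -0.63 to 4.31). In enhancer regions with FLAG or BRG1 it was found in 10.2% and 15.7%, a difference of 5.45 points (95% interval 4.25 to 6.63).

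Each region was assigned to the nearest start site of a protein-coding gene within 100 kb, which was possible for 2481 of 2912. They were spread over 2214 genes, 10.1% of 21924. Of these genes, 1981 had 1 such region, 203 had 2, 26 had 3 and 4 had 4. An enhancer region with FLAG or BRG1 was assigned to 1731 of the 2214 (78.2%) as well, and over all protein-coding genes to 61.1%. The other 483 had regions without NANOG or BRG1 alone. Nearness does not show that a region acts on a gene.

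The genes with most of these regions were Lrrc32, which encodes a docking receptor of latent TGF-beta, Prkag2, a regulatory subunit of AMP-activated kinase, Tns1, a focal adhesion protein, and Fgf1, a fibroblast growth factor, with 4 each. Of 26 genes with 3 each, Pard6b, Ptpn1, Morn1, Hivep3, Arhgef10l and Gramd1b were taken for the highest H3K27ac height, with a tie at the last place settled by alphabet. Counts were not scaled to the span of a gene, and gene lengths ran from 12.9 kb at Lrrc32 to 404.3 kb at Hivep3. At Lrrc32 the H3K27ac heights in NanogWT were 12, 21, 16 and 14 tags in genomic order. A peak was called in NanogBiD at the third of them alone, at 14 tags. At Tns1, 3 of the 4 were marked in NanogWT alone, with heights of 11, 18 and 13 tags, and the other had 13 tags in NanogWT and 12 in NanogBiD. At Hivep3 all 3 were marked in NanogWT alone, at 8, 9 and 19 tags. At Prkag2 the highest was the one in NanogBiD alone, at 21 tags. At Gramd1b, a sterol transfer gene, 2 of the 3 were marked in NanogBiD alone, at 10 and 18 tags. These 10 genes also had between 1 and 14 enhancer regions with FLAG or BRG1. Tnfrsf1b, a receptor of tumour necrosis factor, had 3 regions without NANOG or BRG1 and none with them, and their H3K27ac heights were 14, 12 and 10 tags in NanogWT and 11, 13 and 9 in NanogBiD. It was singled out after its values were seen.

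Gene lists of fibroblast and pluripotency programmes were then read, with 10.1% of all protein-coding genes and 8.01% (7.71 to 8.32) of enhancer regions near them as the reference. Of 31 fibroblast matrix genes, 4 (12.9%) had a region without NANOG or BRG1, and these were Pdgfra, the receptor of platelet-derived growth factor, Timp3, a metalloproteinase inhibitor, Col6a2 and Fap. Of all enhancer regions assigned to that list, 4.55% (1.78 to 11.1) lacked both proteins. H3K27ac at Pdgfra, Timp3 and Col6a2 was called in NanogWT alone, at 13, 13 and 12 tags, and the Fap promoter had 12 tags in NanogWT and 10 in NanogBiD. Of 18 mesenchymal regulators, 3 had one, namely Runx1 with 2 regions, Snai1 and Osr2. At Runx1 both regions were in NanogWT alone, at 12 and 10 tags, while the Snai1 region had H3K27ac at 17 tags in both arms. Of 13 AP-1 and related genes, Fos, Fosl1 and Jun had one. The Fosl1 promoter was marked in both arms, at 12 and 13 tags, and Fosl1 had no enhancer region with FLAG or BRG1. The Fos region had 15 tags in each arm.

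Of 16 contractile genes 2 had such a region, Vcl and Cald1, both marked in NanogBiD alone. Of 16 TEAD and Hippo genes 3 had one, Tead4, Tead1 and Ccn1, and the intronic region at Tead4 was the strongest over all the lists, with H3K27ac at 19 tags in NanogWT and 23 in NanogBiD. Of 15 TGF-beta genes 5 had one (33.3%), with 3 regions at Smad7, the inhibitory SMAD, and 1 each at Smad3, Tgfb3, Ltbp2 and Tgfbr2. Of the enhancer regions assigned to that list, 9.59% (4.72 to 18.5) lacked both proteins. Of 24 pluripotency genes 4 had one, which were Esrrb, Utf1, Tbx3 and Klf5. Esrrb, a nuclear receptor of naive pluripotency, had 2 regions, one in NanogBiD alone with H3K27ac at 16 tags and one in NanogWT alone at 12 tags, beside 2 enhancer regions with FLAG or BRG1. The Klf5 and Utf1 regions were in NanogWT alone, at 9 and 12 tags, and the Tbx3 region in NanogBiD alone, at 11. Of enhancer regions assigned to the pluripotency list, 12.5% (5.46 to 26.1) lacked both proteins. Of 16 epithelial genes, Ovol2 and Krt8 had one. Among markers of other cell types, Kdr, Csf1r and Des had 1 region each and the 6 neural genes had none. For all 12 lists the interval of the share included 8.01%. Over all lists, 15 of 33 regions were marked in NanogWT alone, 12 in NanogBiD alone and 6 in both arms.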

How the data were processed

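Per the labels and the study's methods, the authors trimmed reads (Trim Galore 0.6.4), aligned them to mm10 (Bowtie2 2.4.5), removed repetitive, low-quality and mitochondrial reads and merged replicates (SAMtools 1.16.1), and called peaks with no control library named (MACS 1.4.2). H3K4me1 is named so in the sample titles, while the antibody label reads H3K4me. How many replicates each CUT&Tag library merges is not given in the sources used here, which state only a minimum for experiments in general. In the deposited peak lists the score is -10 log10 of the p-value (lowest 50). The deposited summit files hold a signal, which is how many tags pile up at the top of each peak. Neither was scaled to depth.

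Peaks were merged, classed and annotated in Python 3.11.15 with numpy 2.4.6, pandas 2.3.3 and pysam 0.24.0, using GRCm38 and GENCODE basic genes. Shares have Wilson and differences Newcombe 95% intervals, for motifs also adjusted over 19 by Bonferroni. Classing was tested on simulated data (0 of 20000 regions wrong). The regions, motifs and gene lists were chosen with earlier results of these data known. Named were 6 regions with both marks in both arms and 4 from each single arm, by the lowest of the heights of the arms concerned, the 10 genes with most regions, and up to 5 genes of each list. Limits on score, height, number of peaks, overlap, merging, chromosomes, promoters, windows and start sites were varied. Comparisons at H3K27ac heights of 10 to 14 tags and at 45 to 55% G+C were added after seeing the data. CUT&Tag tags are not independent molecules, and intervals cover counting error alone.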

Additional observations from a re-analysis of the deposited data

How the results depend on the processing

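No paired analysis was possible because the labels number no replicates and every group is 1 library. The number of regions was 1670 at a score of at least 100 and 1752 with each list cut to its 20000 best-scoring peaks, and the number of nearby genes 1426 and 1466. At these settings, at a height of at least 15 tags, without FLAG or BRG1 within 1000 bp, with FLAG and BRG1 of the same arm only and with merging across 500 bp, the share of enhancer regions lacking both was 10.1%, 13.3%, 15.7%, 6.69%, 9.76% and 7.31%. Marks in both arms made up 22.9%, 23.9% and 26.1% at the first 3 of these, 13.8% with proteins of the same arm and 14.02% at H3K27ac heights of 10 to 14 tags. Marks in NanogBiD alone made up 30.7%, 37.4% and 26.4% at the first 3, then 38.0% and 37.9%. Marks in NanogWT alone made up 38.6% with 20000 peaks. The promoter share was 50.2%, 46.0% and 51.4% at the first 3, 26.3% with promoters of 1 kb, 22.5% with those of protein-coding genes and 26.1% at 10 to 14 tags. The promoter difference turned to 1.53 points (-0.997 to 4.06) at the score limit, 1.52 at 15 tags and 9.44 at 10 to 14 tags. H3K27ac was higher in NanogBiD at 57.3% of regions with 20000 peaks, from 49.8%, and H3K4me1 at 29.8% by score, from 21.4%. The motifs that differed in distal regions numbered 3 with 20000 peaks and 2 at 45 to 55% G+C, from 7. Median G+C of distal windows was 53.0% at the score limit and 53.3% at 15 tags. The causes were not tested. The distal AP-1 and NANOG core differences from pooled regions with FLAG or BRG1 kept their order and intervals excluding 0 in all 12 settings run on them. Neither is independent of the rule, which removed regions with FLAG or BRG1 peaks. The AP-1 difference between the arms had an interval including 0 in 8 of 12. Unknown depth limits all comparisons of arms.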
